A study of Mus musculus with 11 samples.

Results

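The stefins are a family of small inhibitors of cysteine proteases, and their RNA was followed here in 11 mouse tumours measured on Illumina bead arrays. The members were taken by name, as the genes whose current or older annotated symbol starts with Cstdc, Csta or Stfa, plus Cstb. The gene table held 16 such genes, and 6 of them had a named probe: Cstdc4, Csta2, Csta3, Stfa1, Cstdc5 and Cstb. They carried 7 of the 16496 probes named with 1 symbol, and 5 of the genes entered the fit, of 10623 genes in all. The probe file held 45281 probes, and names came only from the annotation of the authors' table. A stefin probe without a name there would be missed, so these counts do not show what the array can measure. The family was chosen by how Cstdc4, Csta3 and Cstb differed between DX and PBS tumours on these arrays, so those differences are described here without a test.

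The tumours were subcutaneous MCA fibrosarcomas of C57BL/6 mice aged 10 to 12 weeks. They were injected at a surface of 25 to 45 mm2 and collected at day 2. KO hosts lacked Fpr1, a receptor of leukocytes for formylated peptides (Fpr1-/-), and WT hosts were wild type. DX tumours received doxorubicin, an anthracycline, at 2.9 mg per kg in 50 uL, and PBS tumours received buffer. There were 2 KO DX, 3 KO PBS, 3 WT DX and 3 WT PBS arrays. The labels give the genotype to the host and not to the tumour cells, so the deletion concerns host cells in the tumour. The labels number the MCA cells differently in every sample. They were taken as 1 tumour line, and if they were different lines each group difference would hold that difference too. The labels do not say that arrays of 1 group came from separate animals, so p-values measure the spread between these samples, which may be technical.

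Stefins, also called type 1 cystatins, are small proteins without a signal peptide that act inside the cell. They bind tightly and reversibly in the active site of papain-like cysteine proteases such as cathepsins B, H, L and S, and so hold in check protease that has left the lysosome. Most mammals make stefin B, encoded by Cstb, in nearly every cell. In the mouse the stefin A gene has multiplied into a cluster of close copies that are known from neutrophils, other myeloid cells and the epidermis.

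The gene table placed 11 stefin A genes in 1 cluster on chromosome 16, and 5 of the 11 had a named probe. Another 3 genes taken by the rule, Cstad, Cstdc1 and Cstdc2, lie on chromosome 2 and had no named probe. They were taken by the letters of their names alone, which does not make them stefins. Cstb lies apart on chromosome 10. The copies are alike in sequence and probe sequences were not used here, so signal from a close copy cannot be told from that of the named gene, and each stefin A value is uncertain in this respect. RefSeq promoters (GRCm38.p6, 250 bases before to 50 bases after the annotated start, read 5′ to 3′ in the direction of the gene) were available for the 5 stefin A genes with a probe. They are shown because 4 of them share a stretch of letters and the one that differs most, Csta2, was also higher on every DX array than on the PBS arrays of its genotype. Capitals mark the 18 bases CCCCCAACTCCACTCAGC and the run TTTAAAA nearer the start.
Cstdc4: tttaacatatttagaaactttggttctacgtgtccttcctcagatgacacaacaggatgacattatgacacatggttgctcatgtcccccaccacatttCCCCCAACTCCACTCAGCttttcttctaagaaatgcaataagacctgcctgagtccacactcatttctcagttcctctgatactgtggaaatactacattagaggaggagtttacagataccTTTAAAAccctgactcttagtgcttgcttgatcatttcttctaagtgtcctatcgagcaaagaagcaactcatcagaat
Csta3: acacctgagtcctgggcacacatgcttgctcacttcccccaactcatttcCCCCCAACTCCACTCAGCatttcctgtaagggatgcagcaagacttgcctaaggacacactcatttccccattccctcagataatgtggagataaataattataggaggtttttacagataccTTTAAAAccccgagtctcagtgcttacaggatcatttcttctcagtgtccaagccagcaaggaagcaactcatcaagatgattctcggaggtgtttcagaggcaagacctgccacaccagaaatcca
Stfa1: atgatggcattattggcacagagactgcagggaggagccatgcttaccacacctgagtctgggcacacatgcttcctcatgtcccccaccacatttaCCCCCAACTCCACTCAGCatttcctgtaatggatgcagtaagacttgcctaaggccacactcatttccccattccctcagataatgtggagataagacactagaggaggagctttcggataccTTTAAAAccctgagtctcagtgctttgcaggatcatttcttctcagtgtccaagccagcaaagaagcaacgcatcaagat
Cstdc5: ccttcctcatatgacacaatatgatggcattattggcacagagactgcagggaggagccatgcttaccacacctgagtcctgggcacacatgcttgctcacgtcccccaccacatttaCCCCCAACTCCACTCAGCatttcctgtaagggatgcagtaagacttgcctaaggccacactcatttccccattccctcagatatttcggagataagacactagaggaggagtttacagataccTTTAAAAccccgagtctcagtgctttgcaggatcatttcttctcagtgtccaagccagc
Csta2: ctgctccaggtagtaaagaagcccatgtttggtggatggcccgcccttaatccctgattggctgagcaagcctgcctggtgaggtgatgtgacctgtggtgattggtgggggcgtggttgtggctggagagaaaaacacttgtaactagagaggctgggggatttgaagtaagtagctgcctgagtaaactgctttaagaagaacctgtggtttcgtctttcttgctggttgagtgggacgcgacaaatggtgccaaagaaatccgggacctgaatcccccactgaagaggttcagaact

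The windows lie at chr16:36183962-36184261 on the plus strand for Cstdc4, chr16:36210153-36210452 on the plus strand for Csta3 and chr16:36276898-36277197 on the plus strand for Stfa1. That of Cstdc5 lies at chr16:36367521-36367820 on the minus strand, and that of Csta2 at chr16:36221312-36221611 on the plus strand. The most alike pair was Cstdc5 and Stfa1, identical at 83.8% of aligned positions. Cstdc4 matched Stfa1 at 74.3% and Csta3 at 58.0%. Csta2 matched the other 4 at only 40.1% to 45.4%.

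The 18 shared bases stood 133 bases before the start in Cstdc4, 182 in Csta3, 135 in Stfa1 and 114 in Cstdc5. They were picked as the longest run common to these 4 promoters, so their presence in all 4 was fixed by that choice. Searched on both strands, the 18 bases occurred in 5 of 32817 promoters (0.0152%), those 4 and that of Gm7260, which lies in the same cluster. Nothing is read from that share. TTTAAAA occurred in the same 4 stefin promoters and in 8.74% of all promoters, while TATAAA occurred in none of the 5 and in 13.6% of all. Among short sequences resembling the sites of myeloid factors, TTGCNNAA (C/EBP) was found in Csta3, Stfa1 and Cstdc5 and in 10.8% of all promoters. GAGGAA (PU.1) was found in Cstdc4, Stfa1 and Cstdc5 and in 28.3% of all. TTCNNNGAA (STAT) was found in Cstdc4 and in 8.29% of all, and CCAAT in Csta2, Stfa1 and Cstdc5 and in 37.4% of all. TGANTCA (AP-1) was in none of the 5 windows and in 7.81% of all. These are matches of letters, and binding was not measured. The 4 promoters with the shared run belong to close gene copies, so their matches are not separate from one another. TTTAAAA was marked as a run that these 4 share, so its count is no test. Nothing is read from any of these counts beside the shares of all promoters.

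Array quality was similar except on 1 chip. The share of the 45281 probes with a detected signal was 35.71% to 40.24%. Both arrays of chip 2, KO PBS 2 and WT PBS 1, had median intensities of 118.1 and 109.7, against 150.7 to 169.4 on the other arrays. The Y-linked gene Eif2s3y was detected on WT DX 2 (8.53) and WT PBS 3 (8.52) and on none of the other 9 arrays, so these libraries stand apart from their groups, and DX differences are given with and without them. No probe was named Fpr1, so the deletion itself was not analysed here. All 9 mesenchymal genes listed for the tumour, among them Col1a1 and Vim, were detected on every array.

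All stefin levels below are log2 intensities after background correction and quantile normalisation, and a probe counts as detected where its deposited detection p was under 0.05. A level is comparable between arrays for 1 probe but not between probes. Cstdc4, a stefin A gene of the chromosome 16 cluster, had 9.26 and 8.85 on the KO DX arrays, against 7.10, 6.64 and 7.43 on the KO PBS arrays. It had 7.98, 8.13 and 8.98 on the WT DX arrays, against 6.81, 6.25 and 5.49 on the WT PBS arrays. The probe was detected on all 11 arrays, and in each genotype every DX array lay above every PBS array. The deposited intensities, before any normalisation, were 733 and 737 on KO DX, against 291, 156 and 340 on KO PBS. They were 386, 406 and 546 on WT DX, against 138, 249 and 174 on WT PBS.

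Cstdc4 was 3.99-fold higher in KO DX than in KO PBS tumours (log2 difference 2.00, SE 0.39). It was 4.54-fold higher in WT DX than in WT PBS tumours (2.18, SE 0.35). The responses of KO and WT hosts differed by -0.19 (KO minus WT, SE 0.53). The sign of this value turned without background correction (0.15) and without the 2 arrays with Eif2s3y signal (0.045), and it ran from -0.50 to 0.16 when each array was left out in turn. By group mean the order was KO DX at 9.06 ± 0.29 (SD, n = 2), WT DX at 8.37 ± 0.54 (n = 3), KO PBS at 7.06 ± 0.40 (n = 3) and WT PBS at 6.18 ± 0.66 (n = 3). Neighbours overlapped within DX and within PBS, and no WT DX array reached down to a KO PBS array. Without the 2 arrays with Eif2s3y signal, the WT difference was 1.95. Without background correction the differences of Cstdc4 were 1.34 in KO hosts and 1.19 in WT hosts, and in the authors' deposited log2 table they were 1.21 and 1.37.

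**Figure D1:**
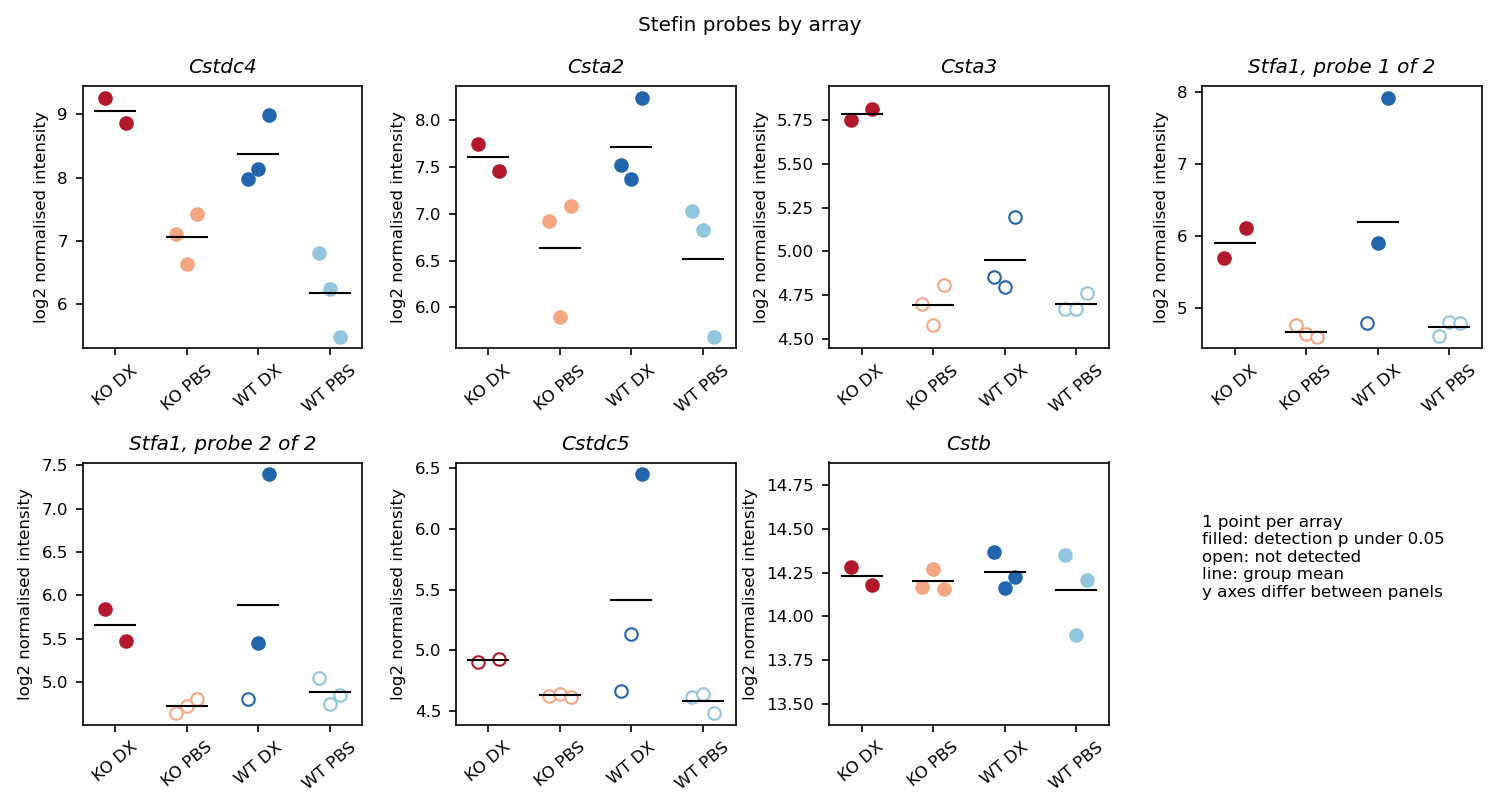
Log2 normalised intensity of each of the 7 stefin probes on the 11 arrays, by group (KO DX, KO PBS, WT DX, WT PBS); filled points are detected (detection p under 0.05), open points are not, and lines are group means. Cstdc4 and Csta2 sit higher on every DX array than on the PBS arrays of the same genotype, Stfa1 and Cstdc5 are highest on WT DX 3, Csta3 is detected only in KO DX, and Cstb stays between 13.89 and 14.37.

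Csta2, another stefin A gene of the cluster, had 7.75 and 7.46 on the KO DX arrays, against 6.93, 5.90 and 7.09 on the KO PBS arrays. It had 7.52, 7.37 and 8.24 on the WT DX arrays, against 7.03, 6.82 and 5.69 on the WT PBS arrays. The probe was detected on all 11 arrays and the lowest DX array lay above the highest PBS array in each genotype. The difference was 0.97 in KO hosts (SE 0.44, 1.96-fold) and 1.20 in WT hosts (SE 0.39, 2.29-fold). The responses differed by -0.23 (KO minus WT, SE 0.59). The gap was narrow, 7.37 on WT DX 2 against 7.03 on WT PBS 1, and the lowest values on KO PBS 2 and WT PBS 3 widened the distance between means. Without the 2 arrays with Eif2s3y signal the WT difference was 0.96.

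Stfa1 had 2 probes. Probe 1, used in the fit, read 5.70 and 6.11 on the KO DX arrays, against 4.77, 4.64 and 4.61 on the KO PBS arrays. On the WT DX arrays it read 4.79, 5.90 and 7.92, against 4.62, 4.81 and 4.80 on the WT PBS arrays. It was detected on both KO DX arrays, on WT DX 2 and on WT DX 3, and on no PBS array. WT DX 1 lay among the PBS arrays, so the WT groups overlapped.

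Probe 2 of Stfa1 was detected on the same 4 arrays. It read 5.84 and 5.47 on KO DX, against 4.64, 4.72 and 4.81 on KO PBS. It read 4.81, 5.46 and 7.39 on WT DX, against 5.05, 4.75 and 4.85 on WT PBS. Both probes thus had their highest value on WT DX 3 and stayed low on WT DX 1.

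With no signal above background in PBS tumours, the fold of Stfa1 has only a lower bound, set against the lowest detected signal on the PBS arrays. By probe 1 it was at least 1.41-fold higher in KO DX tumours (log2 difference 1.24, SE 0.63) and at least 1.73-fold higher in WT DX tumours (1.46, SE 0.57). The WT difference rested on WT DX 3: without that array it was 0.60, and without WT DX 1 it was 2.17. It was 1.64 without the 2 arrays with Eif2s3y signal. The bounds concern group means in this normalisation and are not confidence limits. Without background correction the log2 differences of Stfa1 were 0.41 in KO hosts and 0.59 in WT hosts. In the authors' deposited log2 table they were 0.20 and 0.87. The bounds therefore do not carry over to other processing.

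Cstdc5, whose promoter is the closest to that of Stfa1, was detected on 1 array and so stayed just outside the fit, which needed 2. It read 4.90 and 4.93 on KO DX, against 4.63, 4.64 and 4.62 on KO PBS. It read 4.66, 5.14 and 6.45 on WT DX, against 4.62, 4.65 and 4.48 on WT PBS. The 6.45 of WT DX 3 was the only detected value. Stfa1 and Cstdc5 therefore peaked on the same array.

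Csta3, just inside the filter, was detected only on the 2 KO DX arrays. It read 5.75 and 5.81 there, against 4.70, 4.58 and 4.81 on the KO PBS arrays. On the WT DX arrays it read 4.85, 4.80 and 5.20, against 4.67, 4.67 and 4.76 on the WT PBS arrays. No WT array had a detected signal, and the KO DX arrays lay above all 9 others.

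Csta3 was at least 1.30-fold higher in KO DX than in KO PBS tumours by the same kind of bound (log2 difference 1.09, SE 0.15). In WT hosts neither group was detected and no fold is given (log2 difference 0.25, and 0.36 without the 2 arrays with Eif2s3y signal). The fitted responses differed by 0.84 (KO minus WT, SE 0.20), a value that compares a signal near the detection limit with background. Both KO DX arrays sat on chip 4 together with WT PBS 2, where Csta3 read 4.67. No chip held KO DX beside KO PBS, so the KO difference has no value within a chip.

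Cstb, the stefin B gene, was bright on all 11 arrays. It read 14.28 and 14.18 on KO DX, against 14.17, 14.27 and 14.16 on KO PBS. It read 14.37, 14.16 and 14.23 on WT DX, against 14.35, 13.89 and 14.21 on WT PBS. The groups overlapped in each genotype, and WT PBS 2 was the lowest array.

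The DX difference of Cstb was 0.03 in KO hosts (SE 0.16) and 0.10 in WT hosts (SE 0.14). Without the 2 arrays with Eif2s3y signal the WT value was 0.18. In the authors' deposited log2 table, without its 2 averaged columns, the KO difference was 0.42, and with the chip as a block it was also 0.42. The stefin B value in KO hosts therefore moved with the processing more than its SE.

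**Figure D2:**
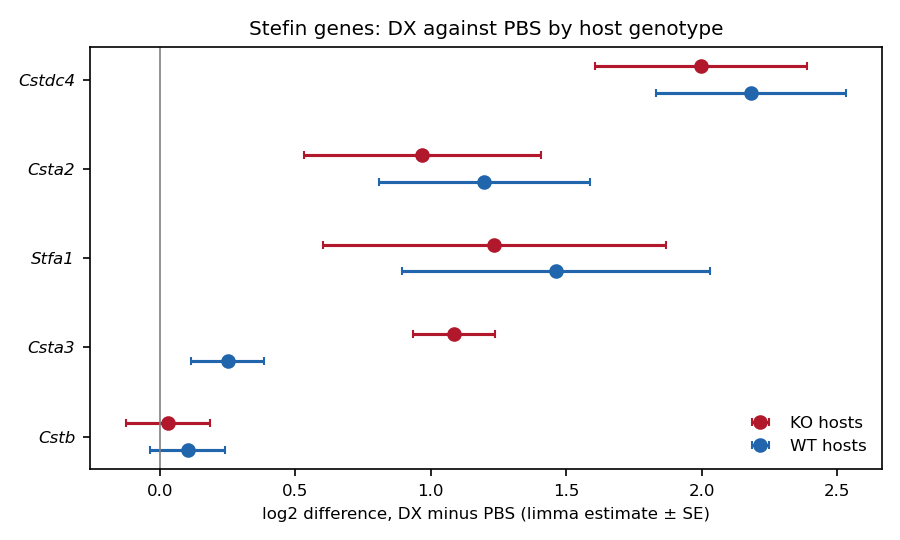
Log2 difference DX minus PBS of the 5 stefin genes in the fit, in KO hosts and in WT hosts; points are limma estimates and bars their SE. Cstdc4 has estimates of 2.00 and 2.18 and Cstb of 0.03 and 0.10; for Csta3 and Stfa1 the PBS arrays were not detected, so their points are no bound on the fold.

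Read against all genes, 66 of 10623 genes (0.621%) passed the limma threshold of an adjusted p under 0.05 in WT hosts, 59 of them higher (0.555%) and 7 lower (0.0659%). In KO hosts 0 genes (0%) passed by limma, and 569 had an unadjusted p under 0.05. For the difference of the responses 0 genes (0%) passed, and 498 had an unadjusted p under 0.05. No call is given for the stefin genes in these comparisons, for which the family was chosen. Arrays did not overlap with DX higher for Cstdc4, Csta2, Csta3 and Stfa1 in KO hosts, where 13.3% of all genes did so. In WT hosts the same held for Cstdc4, Csta2 and Csta3, against 6.26% of all genes, and in both genotypes at once for these 3 genes, against 2.08%. Nothing is read from these counts for the same reason.

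Chip 5 allowed the WT comparison within 1 chip. WT DX 3 exceeded WT PBS 3 there by 3.49 for Cstdc4, 3.12 for Stfa1, 2.55 for Csta2, 0.44 for Csta3 and 0.02 for Cstb. For Cstdc4 and Csta2 this set the highest WT DX array against the lowest WT PBS array, so these gaps exceed the group differences. WT PBS 3 is also an array with Eif2s3y signal. With the chip as a block over all arrays, the DX difference of Cstdc4 was 1.76 in KO hosts and 2.56 in WT hosts. The KO differences of Csta2 and Stfa1 fell to 0.49 and 0.75 in that fit. The difference of the responses of Cstdc4 then was -0.80, and that of Csta2 -1.03, so the size of both depended on how chips were treated.

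Host genotype was compared within each treatment, on the arrays that also gave the DX differences. Both KO DX arrays sat on chip 4 and the WT DX arrays on chips 1, 3 and 5. No chip held both groups, so the genotype difference after DX has no value within a chip and may hold a difference between chips. After DX, 0 of 10623 genes (0%) passed by limma, with 712 genes at an unadjusted p under 0.05. Cstdc4 was 0.69 higher in KO DX than in WT DX tumours (SE 0.39, adjusted p = 0.8151 by limma), with overlapping arrays. With the chip as a block that difference was 0.24, and it was 0.29 in the authors' deposited log2 table. Csta3 was at least 1.37-fold higher in KO DX than in WT DX tumours by the same kind of bound (0.83, SE 0.15). It entered the fit only through its 2 KO DX arrays, so no p is given for it. Its KO DX arrays lay above the WT DX arrays, as did those of 15.4% of all genes. The other 3 genes differed by -0.10 (Csta2), -0.30 (Stfa1) and -0.02 (Cstb), with limma adjusted p of 0.9806, 0.9564 and 0.9865.

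In the authors' deposited log2 table, analysed without its 2 averaged columns, Csta3 differed by 0.25 after DX. Cstb (0.29) passed there with a limma adjusted p of 0.007557 and the sign opposite to that from the intensities. That table called 4155 genes in this comparison, against 0 from the intensities, and the cause was not tested. With calls so common, the pass of Cstb is not read as a result about that gene.

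After PBS, 1 of 10623 genes (0.00941%) passed between hosts by limma, the gene of the neutrophil-attracting chemokine Cxcl1. Cstdc4 averaged 7.06 in KO PBS and 6.18 in WT PBS tumours (0.87, SE 0.35, adjusted p = 0.8634 by limma), with KO PBS 2 below WT PBS 1. It was 0.53 without WT PBS 3, the lowest array, and 0.37 without background correction. On chip 5, KO PBS 3 exceeded WT PBS 3 by 1.94 for Cstdc4 and by 1.40 for Csta2. On chip 2 the sign was opposite, with KO PBS 2 at -0.17 against WT PBS 1 for Cstdc4 and at -1.13 for Csta2. Csta2 (0.12) and Cstb (0.05) had limma adjusted p of 0.9975 each, and Stfa1 and Csta3 were detected in neither PBS group.

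The stefin A genes correlated positively with each other among the 11 arrays, to differing degrees. Cstdc4 and Csta2 correlated with a Pearson r of 0.88, and with 0.93 after each group's mean was taken off, so they were also high and low together within groups. Csta3 and Stfa1 correlated with 0.57, and 0.77 after group means. Cstdc4 and Stfa1 correlated with 0.70 and 0.47. Csta3 and Cstdc4 correlated with 0.79 and 0.50, Csta2 and Stfa1 with 0.69 and 0.33, and Csta2 and Csta3 with 0.58 and 0.47. Cstb correlated with the stefin A genes at 0.01 to 0.28, and at -0.28 to 0.01 after group means. These values describe 11 arrays that share chips and groups, and those of Csta3 and Stfa1 rest on a few detected arrays.

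Lysosomal cysteine proteases were next set beside the stefins. Among them are the papain-like cathepsins that stefins bind, and legumain, a protease of another family that is held by some secreted cystatins and not by stefins. Of 11 listed cysteine cathepsins and legumain 9 were measured, and 0 passed by limma in any of the 5 comparisons. Of all genes, between 0% and 0.621% passed per comparison, so a count of 0 is near the background for this list and for those that follow. After DX their median difference was -0.07 in KO hosts (median of all genes -0.01) and 0.19 in WT hosts (all genes -0.03). Ctsb, cathepsin B, differed by 0.11 in KO hosts (limma adjusted p = 0.986) and by 0.27 in WT hosts (0.473). Lgmn, legumain, differed by -0.07 in KO hosts (limma adjusted p = 0.9896) and by 0.51 in WT hosts (0.286). The sum of the 9 normalised intensities ran from 40460 to 49470 on KO DX, from 42870 to 48620 on KO PBS, from 43980 to 54790 on WT DX and from 39370 to 42490 on WT PBS.

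The other lists of lysosomal genes had counts of the same size. All 4 aspartic and serine cathepsins were measured and 0 passed by limma in any comparison, with medians of -0.33 in KO hosts and -0.14 in WT hosts. Of 20 lysosome genes 17 were measured and 0 passed in any comparison, with medians of 0.04 in KO hosts and 0.20 in WT hosts.

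Among other inhibitors, 5 of 15 listed cystatins and kininogens were measured and 0 passed by limma after DX. Cst3, the secreted cystatin C, differed by -0.02 in KO hosts and by 0.04 in WT hosts. Kng1, a kininogen with cystatin domains, differed by 0.15 in KO hosts (limma adjusted p = 0.9896) and by 1.30 in WT hosts (0.2179). Of 19 listed serpins, Wap-domain inhibitors and metalloprotease inhibitors, 13 were measured. 0 passed in KO hosts and 1 rose in WT hosts, Slpi, an inhibitor of neutrophil elastase. Slpi differed by 0.76 in KO hosts (SE 0.21, limma adjusted p = 0.6026) and rose by 1.15 in WT hosts (SE 0.19, limma adjusted p = 0.02882). The call of Slpi was lost when KO PBS 3 was left out, when the first or the third WT DX array was left out, and when the second or the third WT PBS array was left out. It was also lost under median scaling and when only the groups compared were fitted.

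Serpinb2, an intracellular serpin of macrophages, differed by 1.00 in KO hosts (SE 0.65, limma adjusted p = 0.9642) and by 1.95 in WT hosts (SE 0.58, 0.2113). Serpina3n, a secreted serpin, differed by 0.17 in KO hosts (SE 0.41, limma adjusted p = 0.9896) and by 1.36 in WT hosts (SE 0.36, 0.1591).

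**Figure D3:**
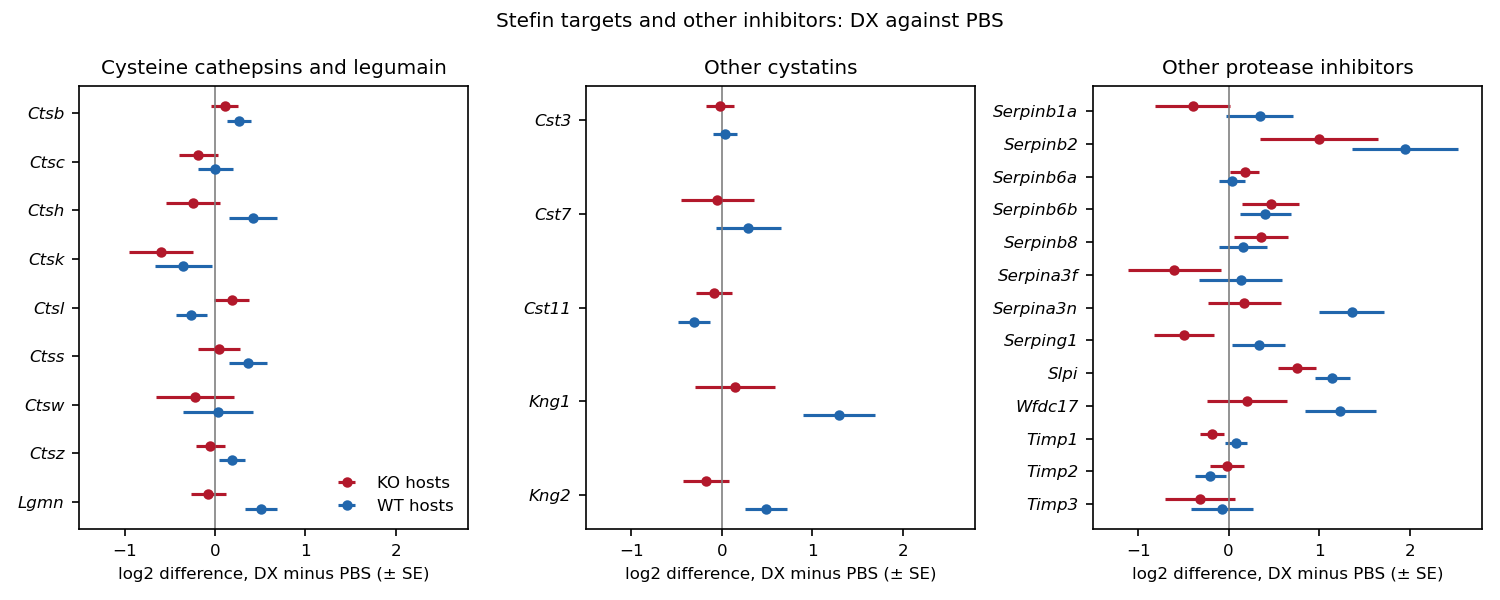
Log2 difference DX minus PBS, ± SE, of the measured cysteine cathepsins and legumain, other cystatins, and other protease inhibitors, in KO hosts and in WT hosts. Only Slpi in WT hosts (1.15) passed the limma threshold, and the cysteine cathepsins and legumain lie between -0.60 and 0.51.

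The genes next to the cluster on chromosome 16 were measured in 6 of 10 cases (Ccdc58, Fam162a, Wdr5b, Kpna1, Cd86 and Ildr1). 0 of them passed by limma in any comparison, and their median DX difference was 0.03 in KO hosts and 0.14 in WT hosts. Cd86, a costimulatory gene of myeloid cells, differed by -0.19 in KO hosts (limma adjusted p = 0.986) and by 0.33 in WT hosts (0.6378).

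Marker lists of other cell types were read on the same arrays. Of 25 neutrophil genes 17 were measured, and their summed normalised intensity ran from 11230 to 14580 on KO DX, from 7922 to 8495 on KO PBS, from 11160 to 15810 on WT DX and from 4890 to 6405 on WT PBS. By limma 0 of the 17 passed in KO hosts and 5 rose in WT hosts, S100a9, S100a8, Lcn2, Il1r2 and Slpi. S100a9, a calcium-binding protein abundant in neutrophils, rose by 3.17 in WT hosts (limma adjusted p = 0.0003973) and differed by 1.56 in KO hosts (0.2133). The neutrophil sums were thus highest on DX arrays and lowest on WT PBS arrays, the group in which Cstdc4 also had its lowest mean. Its part in the stefin differences was not tested, and in whole tumours more cells of a type and more RNA per cell cannot be told apart.

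Of 17 monocyte and macrophage genes 14 were measured, with sums from 24410 to 28130 on KO DX, from 30110 to 33920 on KO PBS, from 22980 to 38210 on WT DX and from 26350 to 29800 on WT PBS. By limma 0 of the 14 passed in KO hosts and 2 rose in WT hosts, Ccr2 (1.10, adjusted p = 0.03014) and Fcgr1 (0.93, adjusted p = 0.04892). Of the 14, the DX difference was positive for 4 in KO hosts (list median -0.28) and for 9 in WT hosts (list median 0.15).

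Of 23 keratinocyte and cornified-layer genes 11 were measured, and their sum ran from 1554 to 1706 on KO DX, from 1153 to 1702 on KO PBS, from 1306 to 3286 on WT DX and from 1309 to 1671 on WT PBS. The value of 3286 was that of WT DX 3, the array with the highest Stfa1 and Cstdc5. 0 of the 11 passed by limma in either genotype, and Krt16, a keratin of stressed epidermis, differed by 1.03 in KO hosts (limma adjusted p = 0.7178) and by 1.45 in WT hosts (0.07167). Krt16 was the highest of the 11 in each genotype. The list median was 0.51 in KO hosts and 0.53 in WT hosts, with 8 of the 11 positive in each. The 7 measured mast cell genes also peaked on WT DX 3, at a sum of 3939, against 757.1 to 1985 on the other arrays. The mean log2 deviation on that array was also the highest of the 11 for the 2 measured eosinophil and basophil genes (1.12), the neutrophil genes (0.88), the other protease inhibitors (0.71), the other cystatins (0.47) and the monocyte and macrophage genes (0.44). The same held for the cysteine cathepsins and legumain (0.36), the genes next to the cluster on chromosome 16 (0.29) and the lysosome genes (0.17). A peak on WT DX 3 was therefore not particular to the cell type lists. The part of any of these lists in the Stfa1 and Cstdc5 signal was not tested.

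Skeletal muscle genes, 16 of 18 measured, separated WT DX from the rest, with sums from 4419 to 6873 on KO DX, from 5979 to 6529 on KO PBS, from 13870 to 27130 on WT DX and from 6192 to 9915 on WT PBS. By limma 4 of them rose in WT hosts and 0 passed in KO hosts. Of 5 red blood cell genes 4 were measured, with sums from 5153 to 5331 on KO DX, from 6154 to 12630 on KO PBS, from 2000 to 4282 on WT DX and from 7740 to 26870 on WT PBS. By limma 2 of the 4, Hbb-bt and Hbb-bs, fell in WT hosts and 0 passed in KO hosts. The part of muscle and blood content in the stefin differences was not tested.

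**Figure D4:**
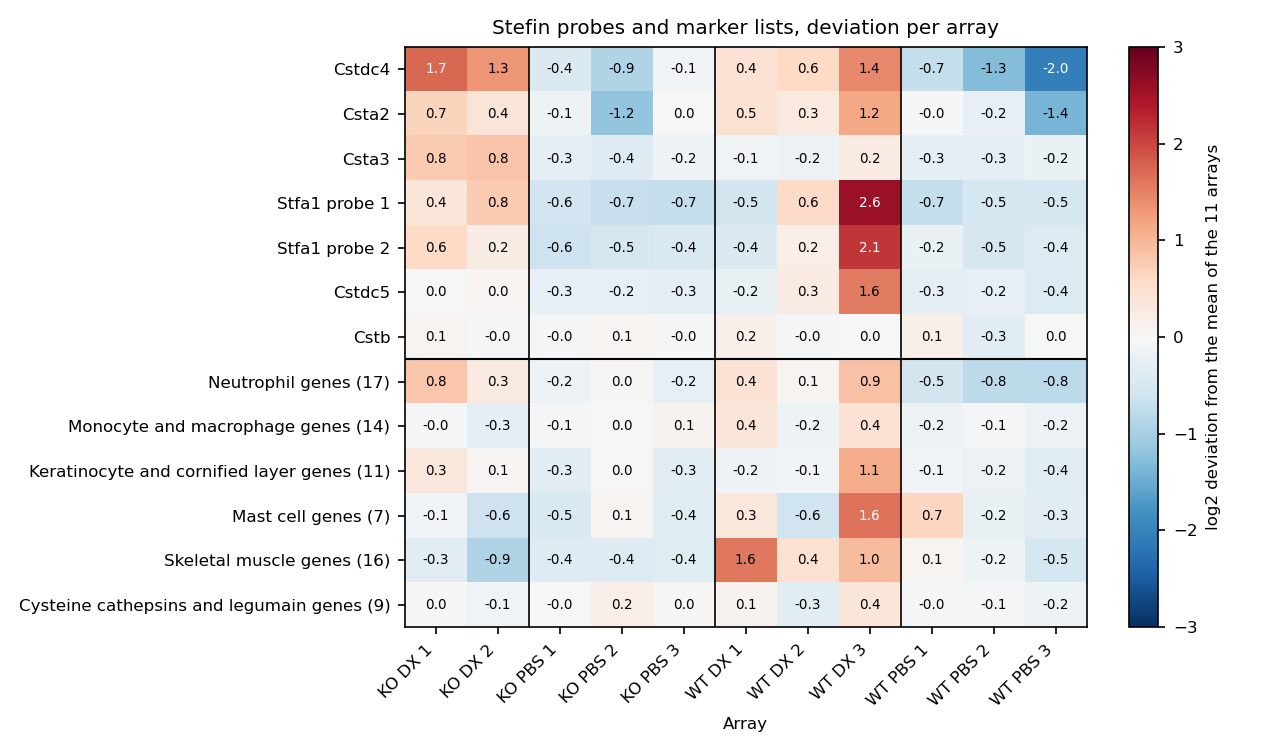
Log2 deviation of each stefin probe, and mean log2 deviation of the genes of each marker list (number measured in brackets), from its mean over the 11 arrays; columns are arrays by group. On average Cstdc4 and the neutrophil genes are lowest in WT PBS. Stfa1 and Cstdc5 peak on WT DX 3. The mast cell (1.62), keratinocyte (1.12), neutrophil (0.88) and monocyte and macrophage (0.44) genes are also at their highest there, as are the cysteine cathepsins and legumain (0.36).

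The genes most like each stefin over the 11 arrays differed from member to member. Closest to Cstdc4 by Pearson r were Hcar2 (0.96), a niacin receptor of myeloid cells, Mmp12 (0.96), the macrophage elastase, Slpi (0.95), the chemokine gene Cxcl2 (0.94) and Ccl4 (0.94), followed by S100a9 (0.93), Acod1, Ccl3, Csf2 and Asprv1 (0.92 each). After group means were taken off, the closest were Uap1l1, B4gat1, Dedd2, U2af1l4 and Ybx1 (0.94 to 0.95), none of them in the first list. Closest to Csta2 were Adap1 and St3gal1 (0.94 each) and Tlr4 (0.92), and its list also held Krt16 (0.91) and Mmp12 (0.90). After group means, the closest to Csta2 were Mga (0.97), Cnot6l (0.95), Gbp2 (0.94), Mmp12 (0.94) and Cstdc4 itself (0.93).

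Stfa1 was closest to Reep3 (0.95) and to Krtdap (0.91), a gene of differentiating keratinocytes, and both stayed among its 5 closest after group means (0.98 and 0.93). Csta3 was closest to Flcn (0.88), Slc48a1 and Tyk2 (0.87 each). Cstb was closest to Dnajc11 (0.94), Myo18a (0.94) and Ntn5 (0.93). These likenesses were picked as the highest among all genes over 11 arrays. Stfa1 was detected on only 4 arrays and read 7.92 on WT DX 3, so that array weighs heavily in its values before and after group means. Csta3 was detected on only 2 arrays, so its likenesses rest mostly on background values.

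The 10 genes closest to Cstdc4 were picked over the same arrays, so their DX differences restate that choice and carry no test here. They ran from 0.51 to 2.59 in KO hosts and from 0.73 to 3.79 in WT hosts, with Cxcl2 highest in each, beside 2.00 and 2.18 for Cstdc4.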

How the data were processed

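Per the file headers, the probe file holds linear intensities that were not normalised, with a deposited detection p-value per probe and array. The authors' second table holds log2 values of 19215 probes, for which the submitters' processing notes name Partek and no steps. Its columns of WT DX 2 and WT PBS 2 equalled the mean of replicates 1 and 3 of their groups and were left out. The intensities were corrected, given an offset of 16, quantile normalised and turned to log2 by neqc (limma 3.58.1, R 4.3.3), with the background taken from the detection p-values. Kept were 20433 of 45281 probes, those detected (p under 0.05) on 2 arrays or more, and the brightest of a gene's kept probes stood for it, giving 10623 genes. Names came from the supplied annotation of the authors' table. A limma model with a mean for each of the 4 groups over 11 arrays (7 residual and 4.04 prior degrees of freedom) gave 5 contrasts, with Benjamini-Hochberg adjusted p under 0.05 as the threshold. Genes are said to rise or fall only past it. Folds are lower bounds where a group had no detected signal. Such a bound concerns the group means in the main normalisation and is not a confidence limit. The scripts were tested on simulated data.

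The members, lists and tests were chosen with earlier results of these data known. Named were the members, list genes that passed or otherwise had the smallest p, and the genes with the highest Pearson r to a member. Other genes were named after their values were seen. The labels do not say that replicate numbers pair the samples, and the numbers were not used as pairs. Deviations of same-numbered arrays from their group means correlated at -0.29 to 0.30, which in groups this small cannot exclude pairing. The number of arrays limits the precision. Promoters are from RefSeq (GRCm38.p6) and were aligned globally with Biopython 1.88. The alternatives tried are named in the closing section, and leaving out both arrays with Eif2s3y signal was added after seeing the data.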

Additional observations from a re-analysis of the deposited data

Results flagged for a closer look

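The Cstdc5 probe had a detected signal on 1 array, WT DX 3, at 6.45 on the log2 scale. It was not detected on the other 10 arrays, among them all 6 PBS arrays, and so it entered no comparison. Both Stfa1 probes had their highest values on the same array, 7.92 and 7.39.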

How the results depend on the processing

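Over the alternatives run, Cstdc4 stayed higher after DX in both genotypes. Between genotypes Cstb passed by limma in the authors' table alone, and no call is given for Csta3. Leaving out 1 array at a time gave DX differences (KO, then WT) of 1.79 to 2.20 and 1.84 to 2.50 for Cstdc4, 0.60 to 1.19 and 0.79 to 1.45 for Csta2, 1.03 to 1.44 and 0.60 to 2.17 for Stfa1, 1.03 to 1.14 and 0.13 to 0.33 for Csta3, and -0.02 to 0.08 and -0.03 to 0.20 for Cstb. Between genotypes it gave, after DX and after PBS, 0.49 to 1.00 and 0.53 to 1.19 for Cstdc4, -0.28 to 0.16 and -0.29 to 0.49 for Csta2, 0.76 to 0.96 and -0.0614 to 0.0534 for Csta3, -0.0758 to 0.0352 and -0.0784 to 0.15 for Cstb, and -1.01 to 0.56 and -0.13 to -0.04 for Stfa1. Genes past the limma threshold then numbered 10 (without WT DX 3) to 233 (without WT DX 2) after DX in WT, 0 to 2 in KO, 0 to 1 for the difference of responses, 0 to 38 (without WT DX 2) between genotypes after DX and 0 to 3 after PBS. Where a left-out KO DX array leaves 1, it is assumed to vary like the other groups.

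Without background correction the counts were 8 in KO, 100 in WT, 10 between genotypes after DX and 3 after PBS. Differences were then closer to 0, with Cstdc4 at 1.34 in KO and 1.19 in WT, Csta3 at 0.36 and 0.10 (0.26 for their difference), Csta2 at 0.49 and 0.61, and Stfa1 at 0.41 and 0.59. The difference of the Cstdc4 responses turned to 0.15 there, and to 0.045 without the 2 arrays with Eif2s3y signal. Median scaling gave counts of 4 in KO, 26 in WT, 3 and 3, and turned the small genotype differences of Csta2 (0.11) and Cstb (0.0828) after DX and of Csta3 (0.0042) after PBS, with Cstb at 0.20 after DX in KO. The authors' table, run without its 2 averaged columns, gave 3613 genes in KO, 2766 in WT, 4001 for the difference, 4155 after DX and 396 after PBS. DX differences there were 1.21 (KO) and 1.37 (WT) for Cstdc4, 0.37 and 0.11 for Csta3 (0.26 for their difference), 0.28 for Csta2 in KO, 0.20 for Stfa1 in KO and 0.42 for Cstb in KO (0.37 for the difference of responses). Between genotypes after DX, Csta3, a gene high on the KO DX arrays alone and so given no call, was 0.25. Cstb (0.29) passed, Cstdc4 was 0.29, and after PBS Cstb was -0.0804 and Stfa1 0.14. After DX in KO and in WT that table called 3 and 6 cysteine cathepsins and legumain, 2 and 1 other cathepsins, 5 and 9 lysosome genes, 1 and 2 other cystatins and 6 and 7 other inhibitors, against 0 of each and, for other inhibitors in WT, 1 from the intensities. The number of genes tested in that table is not given here, so these counts have no share of all genes beside them. Calls were common there over all genes, so nothing is read from these counts or from the pass of Cstb. The cause of the many calls was not tested.

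With the chip as a block the counts were 1 in KO and 0 between genotypes after PBS, the responses differed by -0.80 for Cstdc4, -1.03 for Csta2, -1.34 for Stfa1 and 0.37 for Cstb, and Cstb was 0.42 after DX in KO. Genotype differences that turned were those of Cstb after DX (0.29) and after PBS (-0.0796), and after PBS those of Csta3 (0.0151) and Stfa1 (0.34). With the replicate number as a block, which the labels do not give as a pairing, 63 genes passed in WT, 5 between genotypes after DX and 0 after PBS. Cstdc4 was then 2.05 in KO and 2.18 in WT. Only the groups compared gave 1 in KO, 12 in WT and 0 after PBS. The chip block and leaving out WT DX 2 each called 1 other cystatin in WT. A stricter filter gave 3 after DX, and the mean of a gene's probes gave 2 in KO. Without the 2 arrays with Eif2s3y signal 35 genes passed between genotypes after DX, and after PBS Csta2 (-0.29) and Csta3 (0.0257) turned. Signal near background limits Csta3, Stfa1 and Cstdc5.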
